A study of Mus musculus with 6 samples.

Results

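The genes that drive the passage from G2 phase through mitosis, 30 in all, were followed by bulk RNA sequencing in the dividing mouse macrophage cell line RAW264.7. The members are a list of gene symbols put together with earlier results of these data known, without a threshold on their values, and all 30 of 30 symbols were found once each among the 54532 genes of the deposited tables. There were 3 control libraries, labelled wild type with no shRNA tag, and 3 libraries labelled as an ERMAP knockdown by shRNA (a short hairpin RNA, here carried by a lentivirus). No label describes a non-targeting hairpin, a control virus, or any synchronization of the cell cycle, and the treatment text names the ERMAP virus for every sample, so transduction of the controls is not settled. ERMAP is a membrane protein of the butyrophilin family, and the series asks which genes differ after its knockdown. Replicates are not said to be separate cultures, so p-values here measure the spread between libraries, which may be technical.

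Ermap itself had 12, 12 and 3 counts in control replicates 1, 2 and 3 and 10, 21 and 14 in the labelled replicates (log2 fold change 0.81, edgeR adjusted p = 0.929). The knockdown was therefore not visible in this gene, and every direction below compares the libraries labelled ERMAP shRNA with the control libraries. Libraries held 13447021 to 16602734 counts. The 10 macrophage markers summed to 7363 to 7647 CPM (counts scaled by library size and TMM factor) in control and 7551 to 7725 CPM in the labelled group. T cell markers were all at 0, as were 4 of 5 each of the neutrophil, fibroblast and epithelial markers, and Ms4a1 of B cells. The 4 B cell markers used summed to 260.3 to 303 CPM in control and 335 to 371 CPM in the labelled group, the 5 erythroid markers to at most 1.04 CPM in any library, and the part of such cells in the results was not tested. Mitochondrial genes took 3.69% of the counts of control replicate 1 and 1.71% to 2.18% in the other 5 libraries. Control replicate 1 stood apart in many genes, so the members' fold changes are given with and without it.

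Entry into mitosis is set by cyclin-dependent kinase 1 (Cdk1) bound to cyclins A and B, switched on by Cdc25 phosphatases and helped by the Plk1 and Aurora kinases. The spindle checkpoint then holds the anaphase-promoting complex until every kinetochore is attached, after which Cdc20 directs the destruction of cyclin B and cells divide. Messenger RNAs of these genes rise together in late S and G2 phase and fall after division, so in a mixed culture their summed level follows how many cells are in those phases. In bulk RNA, fewer cells in G2 and M and less RNA per cell cannot be told apart.

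Many G2/M promoters carry 2 short elements: CCAAT boxes, bound by NF-Y, and the cell cycle genes homology region TTTGAA, bound by the MuvB complexes with B-Myb or the DREAM repressors. The rule for members did not use sequence, so exact matches to CCAAT and to TTTGAA were counted on both strands, each on its own and with overlaps allowed, from 200 bases before to 20 bases after the annotated start, in RefSeq promoters of GRCm38.p6. Of the 30 members 25 matched the promoter table, and Ccna2, Cdc25c, Aurkb, Tpx2 and Kif20a did not. A CCAAT match was present in 20 of the 25, against 34.4% of all 27025 genes in the table and 36.3% of its protein-coding genes. A TTTGAA match was present in 13 of the 25, against 15.3% of all genes and 13.7% of the protein-coding ones. Both stood together in 12 of the 25, against 4.91% and 4.59%. These are matches of letters, not measured binding sites. Promoters of 5 members are shown 5′ to 3′, with both elements in capitals: Cdk1 and Ccnb2 as the kinase switch, Top2a as one of the most abundant members, and Mki67 and Cenpf as 2 of the 3 members with an unadjusted p under 0.05.
Cdk1, chr10:69352893-69353112, minus strand: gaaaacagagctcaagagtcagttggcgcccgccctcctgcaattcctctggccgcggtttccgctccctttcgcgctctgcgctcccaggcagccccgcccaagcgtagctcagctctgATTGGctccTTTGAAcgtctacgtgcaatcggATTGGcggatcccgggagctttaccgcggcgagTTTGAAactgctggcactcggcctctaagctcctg
Ccnb2, chr9:70421535-70421754, minus strand: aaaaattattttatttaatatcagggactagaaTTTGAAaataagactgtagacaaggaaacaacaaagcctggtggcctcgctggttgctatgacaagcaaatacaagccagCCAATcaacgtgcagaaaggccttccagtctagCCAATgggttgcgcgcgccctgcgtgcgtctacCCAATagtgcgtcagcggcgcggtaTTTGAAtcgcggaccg
Top2a, chr11:99024170-99024389, minus strand: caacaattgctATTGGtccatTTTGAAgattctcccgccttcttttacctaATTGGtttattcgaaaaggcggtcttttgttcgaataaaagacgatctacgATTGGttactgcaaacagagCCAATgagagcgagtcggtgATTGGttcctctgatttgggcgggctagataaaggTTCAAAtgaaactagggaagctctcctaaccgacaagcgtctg
Mki67, chr7:135716360-135716579, minus strand: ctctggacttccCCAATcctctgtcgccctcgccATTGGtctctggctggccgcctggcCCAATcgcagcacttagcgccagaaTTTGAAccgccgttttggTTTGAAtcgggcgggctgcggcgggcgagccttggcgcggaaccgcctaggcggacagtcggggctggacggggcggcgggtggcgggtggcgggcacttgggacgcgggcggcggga
Cenpf, chr1:189688067-189688286, minus strand: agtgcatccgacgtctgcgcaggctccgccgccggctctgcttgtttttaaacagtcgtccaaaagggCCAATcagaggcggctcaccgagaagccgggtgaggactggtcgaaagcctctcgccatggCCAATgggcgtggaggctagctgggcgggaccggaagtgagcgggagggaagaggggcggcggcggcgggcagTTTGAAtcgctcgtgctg
The TTTGAA match nearest the start began at -15 in Cdk1, -23 in Top2a, 5 in Ccnb2 and 3 in Cenpf, counting the start as 1, while in Mki67 it began at -98. Ccnb2 had 3 CCAAT matches and Top2a 5. All 5 promoters shown hold both elements, which many members do not. Ccnb1, also of the kinase switch, and Cenpe, the other member with an unadjusted p under 0.05, had CCAAT but no TTTGAA match. Anln, Birc5, Ndc80 and Nusap1 had neither.

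All 30 members were expressed in every library, with 366 to 17068 counts each, and all passed the filter on low counts. Levels per gene length ranged from a mean of 9.10 FPKM (fragment counts scaled by gene length and library size, as deposited) for Ndc80, a kinetochore subunit that grips microtubules, to 101 FPKM for Ccnb2, cyclin B2. The median member had 40.5 FPKM. After Ccnb2 came Cdc20 (97.4 FPKM), Top2a (90.3), Ube2c (89.96) and Mki67 (86.3), and the lowest were Ndc80, Cenpf (10.4), Ttk (10.7), Cenpe (14.5) and Cdc25c (14.6). Ranges over the 6 libraries overlapped among the 5 highest, and among Ndc80, Cenpf and Ttk.

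**Figure D1:**
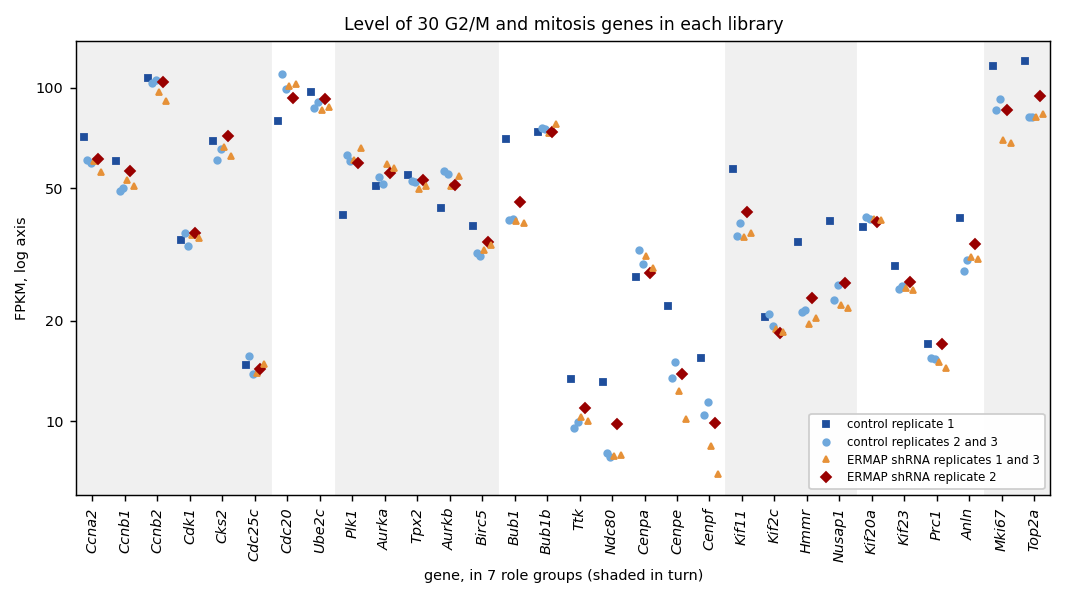
FPKM (log axis) of each of the 30 genes in each of the 6 libraries, grouped by role, 1 point per library. Means run from 9.10 FPKM for Ndc80 to 101 FPKM for Ccnb2, and control replicate 1 (dark squares) lies above the other controls for 20 genes and below them for 7.

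No member passed the test between the groups. With edgeR's quasi-likelihood test on all 12491 tested genes, 0 of 30 were higher and 0 lower at an adjusted p under 0.05, against 1.01% higher and 0.136% lower among all tested genes. Taking unadjusted p under 0.05, 3 members were lower (Cenpf, Mki67 and Cenpe), against 3.04% of all tested genes, and 0 were higher, against 3.71%. DESeq2 also called 0, with a lowest adjusted p of 0.160, where 1.23% of all genes with an adjusted p were higher and 0.378% lower. The median log2 fold change of the members was -0.06, against -0.01 over all tested genes, with 6 positive and 24 negative values. Leaving out control replicate 1, edgeR again called 0 in either direction, where 2.67% of tested genes were higher and 2.19% lower. By unadjusted p under 0.05 the same 3 members were then lower and 0 higher, against 8.54% and 7.81% of tested genes. The median was then -0.02, with 13 positive and 17 negative values, and 11 of the 30 members changed sign.

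A missed threshold does not show that levels were alike, so the 95% intervals are given as bounds. The interval lay within 2-fold of no change for all 30 members, against 82.6% of all tested genes, and again for all 30 without control replicate 1, against 83.1%. It lay within 1.5-fold for 22 of the 30, against 58.4%, and for 29 of the 30 without control replicate 1, against 70.6%. Cenpf was the remaining member in that smaller fit. The fitted values ran from -0.57 (Cenpf) to 0.17 (Plk1) with all libraries and from -0.39 (Cenpf) to 0.11 (Anln) without control replicate 1.

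**Figure D2:**
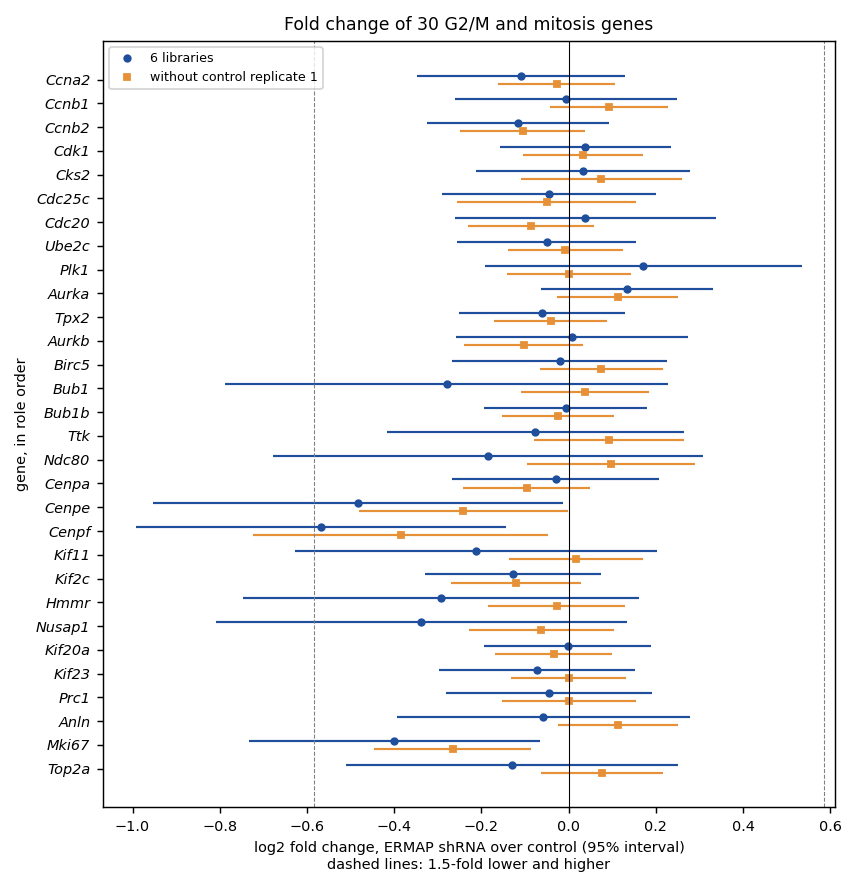
Log2 fold change of each gene, ERMAP shRNA over control, with its 95% interval from edgeR (lines), using 6 libraries (circles) or leaving out control replicate 1 (squares); dashed lines mark 1.5-fold. Cenpf, Cenpe and Mki67 are the genes whose intervals stay below 0 in both fits, and intervals are narrower for all 30 genes without control replicate 1.

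Log2 fold changes of the cyclins and the Cdk1 switch ran from -0.12 (Ccnb2) to 0.04 (Cdk1), and none passed the test. Ccnb2, the most abundant member per length, had 166, 159 and 162 CPM in control replicates 1, 2 and 3 and 149.7, 159.6 and 139.7 CPM in labelled replicates 1, 2 and 3. Labelled replicates 1 and 3 lay below every control and labelled replicate 2 among them, so the groups overlapped (log2 fold change -0.12, SE 0.09, 95% interval -0.32 to 0.09, edgeR adjusted p = 0.937). Cdk1, the kinase itself, averaged 174.6 ± 8.30 CPM (SD, n = 3) over the controls and 179.3 ± 3.36 CPM over the labelled libraries (SD, n = 3), with a log2 fold change of 0.04 (95% interval -0.16 to 0.23). Ccnb1, cyclin B1, had 226.6 ± 27.5 and 225.6 ± 11.6 CPM, where control replicate 1 at 258 CPM was the highest of the 6 libraries, and its log2 fold change of -0.01 became 0.09 (95% interval -0.04 to 0.23) without that library. Ccna2, cyclin A2, had 262.2 ± 27.2 and 243.0 ± 12.1 CPM, again with control replicate 1 highest, at 294 CPM, and a log2 fold change of -0.11, or -0.03 without it. Cks2, a small partner of Cdk1, and Cdc25c, the phosphatase that removes inhibitory phosphates from Cdk1, had log2 fold changes of 0.03 and -0.04. For Cdk1, Cks2 and Cdc25c the values without control replicate 1 were 0.03, 0.07 and -0.05, and for Ccnb2 -0.11. The role group had a median of -0.03, and 0.00 without control replicate 1.

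The partners of the anaphase-promoting complex showed opposite behaviour of control replicate 1. Cdc20, its mitotic activator, had 149.9, 207 and 185.5 CPM in the controls and 191, 174 and 192 CPM in the labelled libraries. Control replicate 1 was the lowest of the 6 and replicate 2 the highest, so the labelled values fell between controls (log2 fold change 0.04, 95% interval -0.26 to 0.34, edgeR adjusted p = 0.967). The value changed sign to -0.09 (95% interval -0.23 to 0.06, edgeR adjusted p = 0.599) with control replicate 1 left out. Ube2c, its ubiquitin-conjugating enzyme, had 256, 227 and 236 CPM in control against 225, 241 and 229 CPM. Here control replicate 1 was the highest library, and the log2 fold change was -0.05 (95% interval -0.26 to 0.15, edgeR adjusted p = 0.951), or -0.01 without that library.

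Among the mitotic kinases, Plk1 and Aurka had the highest fold changes of all members, none past the test. Plk1, polo-like kinase 1, had 92.3, 139 and 133.5 CPM in the controls and 135, 131 and 145 CPM in the labelled libraries. Only control replicate 1 was low: the log2 fold change of 0.17 (95% interval -0.19 to 0.53, edgeR adjusted p = 0.937) became 0.00 (-0.14 to 0.14) without it. Aurka, the Aurora kinase of spindle poles, had 130.1, 138 and 131 CPM in the controls and 151, 140.5 and 146 CPM in the labelled group. It was the only member whose labelled libraries were all above the controls, where 7.74% of all tested genes had such a pattern. Its log2 fold change was 0.13 (SE 0.09, edgeR adjusted p = 0.929) with all libraries and 0.11 without control replicate 1, and it was positive in all 16 alternatives. Tpx2, which activates Aurka on spindle microtubules, had 250.9 ± 8.01 and 240.4 ± 6.73 CPM, a log2 fold change of -0.06, or -0.04 without control replicate 1. Aurkb, the Aurora kinase of the chromosomal passenger complex, and its partner Birc5 (survivin) had log2 fold changes of 0.01 and -0.02. Without control replicate 1, where Aurkb had its lowest and Birc5 its highest level, they were -0.10 and 0.07.

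Kinetochore and checkpoint genes held the lowest fitted values, in Cenpf and Cenpe. Cenpf, a large protein of the outer kinetochore and nuclear envelope, had 241, 162 and 178 CPM in the controls and 131, 153 and 108 CPM in the labelled libraries. All 3 labelled libraries were below all 3 controls, with control replicate 1 far above the rest and labelled replicate 3 the lowest. This gave a log2 fold change of -0.57 (SE 0.18, 95% interval -0.99 to -0.14), which did not pass over all genes (unadjusted p = 0.0150, edgeR adjusted p = 0.415). With control replicate 1 left out, it was -0.39 (95% interval -0.72 to -0.05, edgeR adjusted p = 0.237). Over the 16 alternatives it ran from -0.71 to -0.39, with adjusted p from 0.0269 to 1.00, and it passed only with offsets for GC content (-0.48, edgeR adjusted p = 0.0269, where 1.17% of all tested genes were lower and 2.16% higher).

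Cenpe, a kinesin that carries chromosomes to the spindle equator, had 193, 117 and 130.4 CPM in the controls and 107, 120.0 and 87.9 CPM in the labelled group. Labelled replicate 2 lay above control replicate 2, so the groups overlapped (log2 fold change -0.48, SE 0.20, 95% interval -0.95 to -0.01, edgeR adjusted p = 0.710). With control replicate 1 left out, the value was -0.24 (edgeR adjusted p = 0.300). Bub1, a checkpoint kinase, shows how far a single library can set a mean: 309 CPM in control replicate 1 stood against 176 and 176.5 CPM in the other controls and 175, 198 and 171 CPM in the labelled libraries. Its log2 fold change moved from -0.28 (95% interval -0.79 to 0.23) to 0.04 (-0.11 to 0.18) without that library. Ndc80 and Ttk, the kinase that starts checkpoint signalling, moved likewise, from -0.18 to 0.10 and from -0.08 to 0.09. Bub1b, the checkpoint protein BubR1 that inhibits Cdc20, varied least, with 318, 327 and 324 CPM in the controls and 315, 317 and 333 CPM in the labelled group, a log2 fold change of -0.01 (95% interval -0.19 to 0.18), or -0.02 without control replicate 1. Cenpa, the histone H3 variant of centromeres, had 176.2 ± 16.0 and 172.6 ± 10.8 CPM, a log2 fold change of -0.03, or -0.10 without control replicate 1.

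Spindle motors and microtubule-binding proteins had negative values that shrank without control replicate 1. Kif11, the motor that pushes spindle poles apart, had 279, 175 and 190.0 CPM in the controls and 174, 204 and 177 CPM in the labelled libraries. Nusap1, which bundles spindle microtubules, had 163.5, 94.6 and 104 CPM against 91.6, 106 and 89.1 CPM. In both genes control replicate 1 was the highest library by far and labelled replicate 2 the next, in Nusap1 only just above control replicate 3. The log2 fold change was -0.21 for Kif11 (edgeR adjusted p = 0.937) and -0.34 for Nusap1 (edgeR adjusted p = 0.917), and 0.02 and -0.06 without control replicate 1. Hmmr, a spindle-associated protein also known as a hyaluronan receptor, had the same libraries at the top, with values of -0.29 and -0.03. Kif2c, which takes microtubules apart at centromeres, did not: it had 90.7, 91.9 and 84.8 CPM in the controls and 83.1, 80.5 and 81.2 CPM in the labelled libraries. The groups did not overlap in Kif2c, yet the log2 fold change was small (-0.13, 95% interval -0.33 to 0.07, edgeR adjusted p = 0.937) and -0.12 without control replicate 1.

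Log2 fold changes of the midzone and cytokinesis genes ran from -0.07 (Kif23) to 0.00 (Kif20a), and none passed the test. Kif20a, a motor that relocates the passenger complex at anaphase, had 147, 157 and 154 CPM in the controls and 155, 150.5 and 153 CPM in the labelled group, and control replicate 1 was the lowest library. Kif23, the motor of the centralspindlin complex, had 234, 198 and 202.5 CPM in the controls and 199.9, 208 and 196 CPM in the labelled group, with control replicate 1 highest. Their log2 fold changes were 0.00 (95% interval -0.19 to 0.19) and -0.07 (-0.30 to 0.15), with edgeR adjusted p of 0.998 and 0.948, and -0.03 and 0.00 without control replicate 1. Prc1, which crosslinks midzone microtubules, and Anln, anillin of the contractile ring, had -0.05 and -0.06, and 0.00 and 0.11 without control replicate 1. The 95% interval of Anln was -0.39 to 0.28 with all libraries and -0.03 to 0.25 without control replicate 1.

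Mki67 and Top2a were the members with the most counts. Mki67, the proliferation antigen Ki-67 that coats mitotic chromosomes, had 1180.3, 872 and 936 CPM in the controls and 709, 866 and 689.7 CPM in the labelled libraries. Labelled replicate 2 came close to control replicate 2, but no labelled library reached a control. Mki67 had a log2 fold change of -0.40 (SE 0.14, 95% interval -0.73 to -0.07, edgeR adjusted p = 0.532), and -0.27 without control replicate 1 (95% interval -0.45 to -0.09, edgeR adjusted p = 0.0974). It was negative in all 16 alternatives, from -0.52 to -0.27, and passed only with GC offsets and control replicate 1 left out together (-0.29, edgeR adjusted p = 0.0278, where 2.27% of all tested genes were lower and 3.38% higher). Top2a, the topoisomerase that untangles sister chromosomes, had 1094, 739.5 and 740.1 CPM in the controls and 741, 856 and 754 CPM in the labelled libraries. Its value of -0.13 (95% interval -0.51 to 0.25, edgeR adjusted p = 0.946) turned to 0.08 (-0.06 to 0.22) without control replicate 1.

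The groups did not overlap in 4 of the 30 members: Aurka was higher, and Cenpf, Kif2c and Mki67 were lower. Among all tested genes 7.74% did not overlap with higher and 6.47% with lower values in the labelled group. Without control replicate 1, 6 members did not overlap with higher values (Ccnb1, Aurka, Birc5, Ttk, Anln and Top2a) and 4 with lower values (Cenpf, Kif2c, Mki67 and Aurkb), against 16.6% and 16.1% of all tested genes. Cenpf, Kif2c and Mki67 were thus lower without overlap in both sets of libraries, and Aurka higher. Of all members, 10 kept a negative sign and 3 a positive sign through all 16 alternatives. These include values that came close to 0, as in Plk1 (0.0006) and Kif23 (-0.0003). The alternatives use the same libraries, and the share of all tested genes that kept a sign was not counted.

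Summed over the 30 members, control replicates 1, 2 and 3 had 7391, 6014 and 6078 CPM and labelled replicates 1, 2 and 3 had 5761, 6230.2 and 5677 CPM. Control replicate 1 was alone at the top, and labelled replicate 2 lay above the other controls. Leaving out Mki67 and Top2a, the sums were 5116, 4402 and 4402 CPM in the controls and 4311, 4508 and 4233 CPM in the labelled libraries. The members took 0.738% of the counts of control replicate 1 (95% Wilson interval 0.734% to 0.743%, counting error only) and 0.564% to 0.623% in the other 5 libraries.

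The level of a member in control replicate 1 went with the GC content of its transcript. GC content of the longest annotated transcript ranged from 41.0% (Bub1) to 56.0% (Plk1), with a median of 46.2%, against 49.6% over tested protein-coding genes. Among the 13 members under 45% GC, control replicate 1 was the highest of the controls in 12, and its median difference from the other controls was 0.56 in log2 CPM. Among the 10 members from 45% to 50% the median difference was 0.15, and among the 7 members at 50% or more it was -0.04, with control replicate 1 the lowest control in 5. Spearman's rho of GC content with this difference was -0.88 over the 30 members and -0.77 over 10765 protein-coding genes, which share the libraries and are not independent replicates. Tested genes as a whole had control replicate 1 as their highest library in 36% and as their lowest in 36.5%, and the members in 19 and 6 of 30. Ube2c, at 55.5% GC by its longest transcript, departed from the trend with a difference of 0.14.

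**Figure D3:**
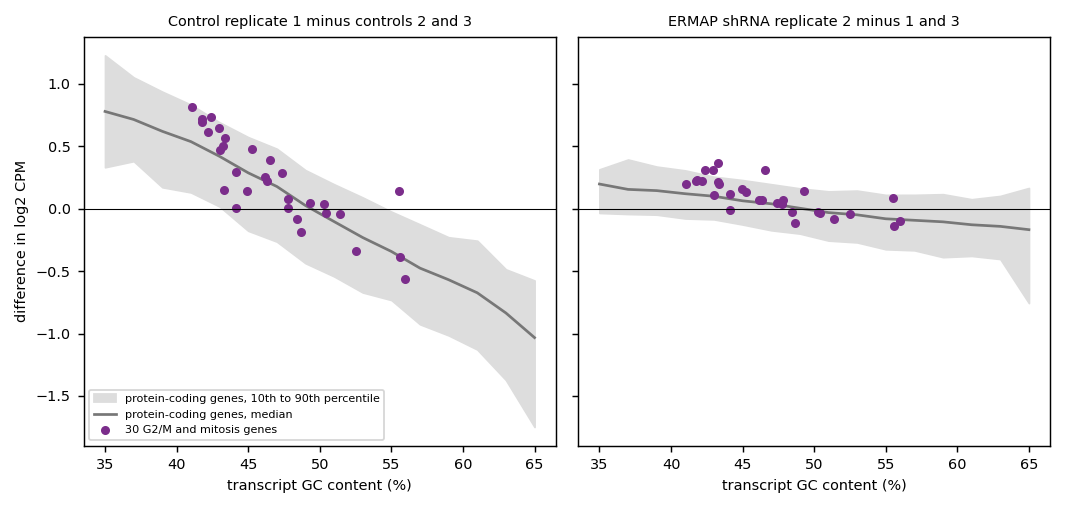
Difference in log2 CPM of control replicate 1 from the other controls (left) and of labelled replicate 2 from the other labelled libraries (right), against transcript GC content in percent; points are the 30 genes, the line and band are the median and the 10th to 90th percentile of protein-coding genes in bins of GC content. In the left panel members run from 0.81 (Bub1, 41.0% GC) to -0.56 (Plk1, 56.0% GC).

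A smaller difference of the same kind appeared inside the labelled group. Labelled replicate 2 lay above the other labelled libraries in 21 of the 30 members, and its difference from them had a rho of -0.79 with GC content over the members and -0.47 over protein-coding genes. It was largest in Cenpf (0.37 in log2 CPM), Mki67 (0.31), Ndc80 (0.31) and Cenpe (0.31). The fold change with all 6 libraries was higher at higher GC content among the members (rho 0.69) and among protein-coding genes (rho 0.35). Leaving out control replicate 1, the relation was weak among the members (rho -0.19) and had the opposite sign among protein-coding genes (rho -0.33). Offsets for GC content per library take out any trend with GC content, whatever its source. They do not measure the part of base composition in the fold changes, which was not tested. With the offsets the median of the 13 members under 45% GC moved from -0.18 to -0.07, against 0.02 without control replicate 1. By unadjusted edgeR p under 0.05 with the offsets, 4 members were lower and 0 higher. Of all 12491 tested genes, 755 were lower and 836 higher by that rule. Fold changes with the offsets still had a rho of 0.34 with GC content over the members, against -0.01 over protein-coding genes. Cenpf, Mki67 and Cenpe kept values of -0.48, -0.36 and -0.38 with the offsets. These 3 are also among the longest members, with gene lengths of 15433, 10061 and 8620 bases. Anln, Top2a and Prc1, at 9063, 9013 and 8225 bases, had values of 0.01, -0.04 and 0.02 with the offsets. Gene length had a rho of -0.60 with the fold change over the 30 members with all libraries and -0.02 without control replicate 1, against -0.14 and 0.12 over protein-coding genes. Over the members, length also had a rho of 0.54 with the difference of control replicate 1 from the other controls, against 0.29 over protein-coding genes. The part of length in the fold changes and in that difference was not tested.

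**Figure D4:**
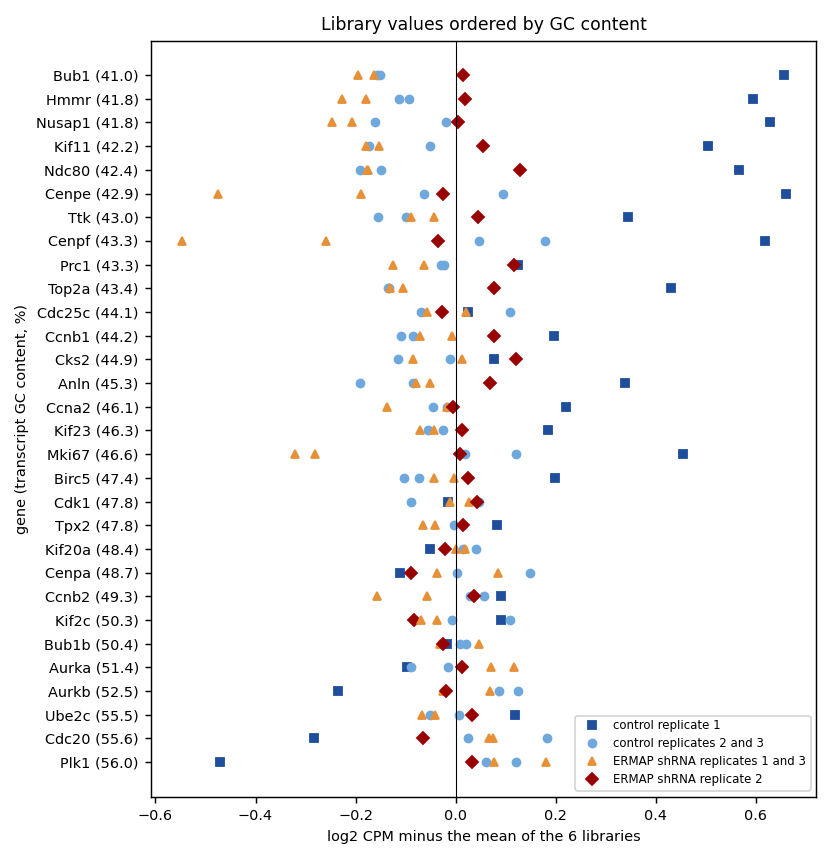
Log2 CPM of each library minus the mean of the 6 libraries, for the 30 genes ordered from low GC content (top) to high (bottom), 1 point per library. Control replicate 1 (dark squares) moves from the right at low GC content to the left at high GC content, while labelled replicates 1 and 3 (triangles) lie lowest in Cenpf, Cenpe and Mki67.

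The spread between libraries bounds what these counts could show. The median SD of a member in log2 CPM was 0.17 over the 3 controls, 0.08 over the 3 labelled libraries and 0.04 over control replicates 2 and 3. For tested protein-coding genes, which include genes of lower counts than any member, these medians were 0.23, 0.09 and 0.08.

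A wider list of 133 other mitotic genes, put together with earlier results of these data known, gave a like picture. Of 131 that were tested, edgeR called 0 in each direction, while DESeq2 called 1 higher. By unadjusted p under 0.05, 1 was higher and 2 lower with all libraries, against 3.71% and 3.04% of all tested genes. These became 3 higher and 8 lower without control replicate 1, against 7.81% and 8.54%. The median of their log2 fold changes was -0.09 with all libraries and 0.00 with control replicate 1 left out. Medians by role were 0.05 for regulators of mitotic entry (12 tested) and 0.05 for subunits and partners of the anaphase-promoting complex (17), -0.08 for kinetochore and checkpoint genes (37), -0.05 for passenger proteins and kinases (10), -0.13 for spindle and centrosome genes (26), -0.11 for cytokinesis genes (9) and -0.13 for condensin, cohesin and other chromosome structure genes (20). Without control replicate 1 these medians lay between -0.07 and 0.03.

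Sass6 and Psrc1 were the genes of that list called once control replicate 1 was left out. That is 1 higher and 1 lower of 131 tested, where 2.67% of all tested genes were higher and 2.19% lower. Sass6, which builds the cartwheel of new centrioles, had 60.0, 38.7 and 40.9 CPM in the controls and 70.0, 79.8 and 74.2 CPM in the labelled libraries. The groups did not overlap, where 7.74% of all tested genes had higher labelled values without overlap. The log2 fold change of Sass6 was 0.68 (SE 0.17, edgeR adjusted p = 0.206). Without control replicate 1 Sass6 rose by 0.90 (SE 0.08, edgeR adjusted p = 4.98e-08), and DESeq2 called it with all libraries (adjusted p = 0.0180). It was called in 5 of 16 alternatives. Psrc1, a microtubule-binding protein of the spindle, had 44.9, 55.2 and 54.8 CPM in the controls and 38.0, 42.5 and 40.1 CPM in the labelled libraries, again without overlap. Lower labelled values without overlap were found in 6.47% of all tested genes. The log2 fold change of Psrc1 was -0.36 (SE 0.12, edgeR adjusted p = 0.428), and without control replicate 1 it fell by 0.46 (SE 0.08, edgeR adjusted p = 0.00102). Psrc1 was called in 3 of 16 alternatives. Sass6 overlaps Trmt13 on the opposite strand, which had 1000 counts in all against 5380 for Sass6, and the strand setting of the counting is not known.

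Regulators of the programme did not pass either. Of 19 tested transcription factors and cofactors of G2/M genes, edgeR and DESeq2 each called 0. By unadjusted edgeR p under 0.05, 0 of the 19 were higher or lower with all libraries, and 2 were higher and 0 lower without control replicate 1, against the shares of all tested genes given for the wider list. Foxm1, the forkhead factor that switches on many of the members, had 176, 187 and 198 CPM in the controls and 181, 182 and 196 CPM in the labelled libraries (log2 fold change -0.01, 95% interval -0.22 to 0.20, edgeR adjusted p = 0.995), or -0.06 without control replicate 1. Mybl2, which encodes B-Myb, had 107, 153 and 149 CPM against 138, 129 and 147 CPM, with control replicate 1 the lowest library (0.02, 95% interval -0.32 to 0.36, edgeR adjusted p = 0.986), and -0.13 (-0.28 to 0.01) without it. Of 15 tested genes of cell cycle brakes and the damage response, edgeR and DESeq2 called 0. By the same unadjusted rule 0 of the 15 were higher or lower with all libraries, against 3.71% and 3.04% of all tested genes. Without control replicate 1, 2 were higher and 2 lower, against 7.81% and 8.54%. With GC offsets 4 were higher and 1 lower, where 836 of all 12491 tested genes were higher and 755 lower. Cdkn1a, the Cdk inhibitor p21, had 123, 180.3 and 162 CPM in the controls and 192, 172 and 196 CPM in the labelled libraries. Control replicate 1 was lowest again, and the log2 fold change was 0.27 (95% interval -0.07 to 0.61, edgeR adjusted p = 0.894) with it and 0.12 (-0.03 to 0.27) without it.

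Genes of the preceding phase, 50 of G1/S and DNA replication, had a median of 0.06 on the log2 scale with all libraries, 0.02 with control replicate 1 left out, and a median GC content of 49.3%. One of them, Ccnd2, encoding cyclin D2, rose from 2.88 ± 0.426 to 12.2 ± 0.825 CPM (mean ± SD, n = 3; log2 fold change 2.09, SE 0.18, edgeR adjusted p = 0.00069) and was called in all 16 alternatives. No other gene of the 50 passed in edgeR or DESeq2; unadjusted edgeR p-values under 0.05 numbered 3 for higher genes, Ccnd2 included, and 1 for lower genes with all libraries, against 3.71% and 3.04% of all tested genes. Leaving out control replicate 1 gave 9 higher and 1 lower, against 7.81% and 8.54%. The difference between the members and the G1/S genes was not tested.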

How the data were processed

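The 6 RNA-seq libraries fall into 2 groups of 3. The submitters' processing notes name HISAT2 and the build mm10, and the authors deposited whole-number counts per gene and FPKM values per library, 1 column each. Sources used here give no counting program, strand setting, annotation release or version. Column names give the group and a number, which serves here as the replicate number, and could not be tied to single samples. The test on the deposited counts was edgeR 4.0.16's quasi-likelihood F test (R 4.3.3, robust), with TMM factors, filterByExpr at a minimum count of 10 and p-values adjusted by Benjamini-Hochberg over all 12491 genes tested. Calls needed an adjusted p below 0.05. Standard errors and 95% intervals come from the same F test. The script was tested on simulated data.

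GC content was taken from the longest GENCODE vM21 transcript of each gene, and all 30 members had one. GC offsets are a lowess trend (span 0.2) of each library's log2 CPM deviation. Other alternatives were DESeq2 1.42.0, limma-trend (limma 3.58.1) on log2(FPKM + 1) and log2(FPKM + 0.1), other factors and filters, a replicate block, and fits with 1 library left out. The fit with GC offsets and without control replicate 1 was added after the fits had been seen. The members and lists were chosen with earlier results of these data known. All 30 members are named. Values in every library are given for the most abundant member of each role group, the one with the lowest p and the one with the largest change, and for Cenpe, Bub1 and Kif2c, which were added after their values were seen. Counts of any 2 libraries of a group differed by more than sampling noise. One cell type marker is not reported here.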

Additional observations from a re-analysis of the deposited data

How the results depend on the processing

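The median log2 fold change of the 30 members stayed within the spread between libraries (SD 0.08) of its value of -0.06 in all alternatives, from -0.11 without labelled replicate 2 to -0.02 without control replicate 1. No alternative called a member higher. Members called lower went from 0 to 1 with GC offsets (Cenpf) and to 1 with GC offsets and without control replicate 1 (Mki67), and leaving out 1 library alone gave 0 to 0. Among the other mitotic genes, the 0 called higher became 1 in DESeq2, with no filter on low counts, with GC offsets, and with GC offsets and without control replicate 1, each time Sass6, and leaving out 1 library gave 0 to 1. The 0 called lower became 1 with GC offsets (Psrc1) and 2 with GC offsets and without control replicate 1 (Psrc1 and Kif20b), and leaving out 1 library gave 0 to 1. The common dispersion was 0.0233, against 0.00937 with GC offsets and 0.0045 without control replicate 1. With all libraries and no offsets, an edgeR adjusted p under 0.1 called 0 members and 0 of the other mitotic genes. Without control replicate 1 that threshold called Mki67 (edgeR adjusted p = 0.0974). With GC offsets it called Cenpf, Mki67 and Cenpe (edgeR adjusted p = 0.0269, 0.0586 and 0.0979). With both changes it called the same members (edgeR adjusted p = 0.0805, 0.0278 and 0.0698). The share of all tested genes under 0.1 was not counted in these fits, so the calls at that threshold have nothing to be set against. Same-numbered libraries did not deviate together (correlations -0.13, -0.28 and 0.18), and the replicate block gave a median of -0.05 with 0 members called. Of 480 values of single members under alternatives, 478 moved by less than the spread between libraries. The other 2 were Ube2c with GC offsets, with and without control replicate 1. This spread and that of the median include control replicate 1, so these comparisons do not show that values were stable. Bub1 moved from -0.28 to 0.04 without that library, within its spread of 0.34. In at least 1 alternative, 17 members had the opposite sign.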

Other observations

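Annotated pseudogenes of members drew few counts. Ccnb1-ps had 201 counts over the 6 libraries against 20225 for Ccnb1, Ccnb2-ps had 49 against 13987 for Ccnb2, and a pseudogene described as Ube2c had 28 against 21121 for Ube2c. Some members share ground with a protein-coding gene on the opposite strand: Ccna2 (22624 counts) with Exosc9 (3474), Cdc20 (16475) with Elovl1 (10454), Kif20a (13703) with Cdc23 (6526), Nusap1 (9676) with Oip5 (1636) and Prc1 (11687) with Rccd1 (598). Reads of such pairs cannot be told apart where the counting took no account of strand.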
